A study of Mus musculus with 16 samples.

Results

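This account describes what a heterozygous deficiency of the gene for CBP did to hippocampal gene expression in mice kept in standard cages. The arrays were chosen by their titles and number 10 of the 16 in the series, 5 from cbp+/- mice and 5 from wild-type mice. CBP, the product of Crebbp, is a large nuclear protein that acetylates histones and bridges transcription factors such as CREB to the transcription machinery. In the hippocampus CREB and CBP are known for activity-dependent transcription during memory formation, and loss of one human copy of the gene causes Rubinstein-Taybi syndrome, in which learning is impaired. The comparison in standard cages asks how far the deficiency alters the transcriptome without any added stimulation.

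The cbp+/- standard-cage group held females aged 3 months, heterozygous for the Crebbp deficiency and bred as an F2 of C57BL/6J and DBA, in cages of at most 5 mice. The labels do not describe the mutant allele. The wild-type standard-cage group held littermates of the same sex, age, background and housing. The other 6 arrays came from both genotypes after 2 weeks in a box with toys, tubing and running wheels and serve here only for comparison. Each array read a pool of hippocampal RNA from 4 animals, so the 5 pools of a genotype stand for 20 animals, and the labels call the pools independent biological replicates. The values are those of pooled whole tissue, so the spread between single animals is not seen and neighbouring tissue left on at dissection is read with it. Values are log2 of the deposited signal of Affymetrix Mouse Gene 1.0 ST arrays, which carry probes along the whole transcript; a difference of 1 on this scale is a doubling of the signal. The granule cell gene Prox1 read 8.02 to 8.82 on the cbp+/- arrays and 8.32 to 8.75 on the wild-type arrays, and the CA1 gene Wfs1 read 7.78 to 8.52 and 7.90 to 8.93, so both defining markers of hippocampal fields had signal on all 10 arrays.

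The replicate number set the arrays apart more than the genotype did. The first principal component of the 10 arrays held 40.7% of the variance, of which 98.5% lay between replicate numbers and 0.0287% between genotypes. Arrays of the same number correlated across genotypes at a median r of 0.997 (0.994 to 0.997), against 0.988 (0.979 to 0.998) between arrays of one genotype; these correlations are over probe sets and are given as a description. What the number stands for is not given in the labels. The differences below are therefore read both over the groups and within each same-numbered pair (pair 1 to pair 5, cbp+/- minus wild type). One array stood apart from the rest in tissue content. The choroid plexus gene Ttr, which encodes transthyretin, read 9.95, 7.38, 12.69, 7.25 and 8.68 on cbp+/- arrays 1 to 5, and 10.90, 8.59, 7.75, 7.14 and 7.18 on wild-type arrays 1 to 5. Over 22 choroid plexus genes the cbp+/- array 3 was 0.615 above the mean of the 10 arrays, with the other 4 cbp+/- arrays at -0.123 to -0.0063 and the wild-type arrays at -0.125 to -0.0029. Results on choroid plexus, meningeal and ependymal genes are also given without it.

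The deficiency was not visible as less Crebbp signal. Crebbp read 9.50, 9.42, 9.68, 9.88 and 9.35 on the cbp+/- arrays and 9.32, 9.41, 9.55, 9.64 and 9.21 on the wild-type arrays. In each pair the cbp+/- array was the higher one, by 0.01 to 0.24, while the groups overlapped. The mean difference was 0.14 (SE 0.099; limma, adjusted p = 1.00), and 0.14 (SE 0.042; limma, adjusted p = 0.621) with the pairs as a block. An exact two-sided permutation test of 5 against 5 arrays gave p = 0.278, and the exact sign-flip test over the pairs gave p = 0.0625, the smallest that 5 pairs allow. The probes lie along the whole transcript, and whether they also read a transcript of the mutant allele was not tested. The arrays labelled cbp+/- are so called here from their labels. Ep300, which encodes the related acetyltransferase p300, averaged 8.51 ± 0.27 in cbp+/- and 8.46 ± 0.25 in wild type (SD, n = 5 each), with a difference of 0.049 (SE 0.13).

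Across the transcriptome the genotypes were close. Of 21780 probe sets limma called 0 at an adjusted p under 0.05 (0%), and the smallest adjusted p was 1.00. With the pairs as a block, limma also called 0 (0%), with a smallest adjusted p of 0.392. At an unadjusted p under 0.05 there were 215 probe sets (0.987%) without the block, 109 higher in cbp+/- (0.5%) and 106 lower (0.487%). The block left the differences as they were, shrank the median SE to 0.048 from 0.082, and brought that count to 1410 (6.47%), 719 higher (3.3%) and 691 lower (3.17%). The median size of a difference was 0.036 and its 99th percentile was 0.19; 3 probe sets differed by 0.5 or more and 0 by 1 or more. In every one of the 5 pairs 852 probe sets were higher in cbp+/- (3.91%) and 776 lower (3.56%); among the brighter 10890 probe sets, those above the median signal, the shares were 4.78% and 5.1%. A mean difference above 0 was found for 53.7% of all probe sets and 52.3% of the brighter ones, and one below 0 for 46.3% and 47.7%. With the block, 4.83% of the brighter probe sets were higher and 5.21% lower at an unadjusted p under 0.05. Every cbp+/- array lay above every wild-type array for 38 probe sets (0.174%) and below for 19 (0.0872%). Because no gene passed, the genes and lists that follow are described by their values, and the directions given for them are not called differences.

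Among the brighter named genes with the smallest p on the higher side, Itih3 and Stxbp2 had no overlap between the groups. Itih3, a heavy chain of the inter-alpha-trypsin inhibitors that binds hyaluronan, read 7.42, 7.57, 7.68, 7.54 and 7.47 on cbp+/- arrays and 7.27, 7.24, 7.29, 7.29 and 7.41 on wild-type arrays. Its groups did not overlap, with a difference of 0.24 (SE 0.056; limma, adjusted p = 1.00, and 0.535 with the block). Stxbp2, a Munc18 protein of membrane fusion, read 7.86, 7.73, 8.09, 7.95 and 7.71 on cbp+/- arrays and 7.70, 7.66, 7.69, 7.65 and 7.67 on wild-type arrays, again without overlap (difference 0.19, SE 0.064). The wild-type values of this gene spanned far less than the cbp+/- values, with SDs of 0.16 in cbp+/- and 0.019 in wild type.

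The other genes on this side were higher in 5 of 5 pairs but overlapped between groups. Cdk5rap1, a mitochondrial tRNA-modifying enzyme, differed by 0.21 (SE 0.058), and Mrps24, a protein of the small mitochondrial ribosomal subunit, by 0.22 (SE 0.073) with pair differences of 0.15 to 0.27. Selenot, a selenoprotein of the endoplasmic reticulum, differed by 0.22 (SE 0.077) and Traf2, an adaptor of tumour necrosis factor receptors, by 0.20 (SE 0.064). Firre, an X-linked long noncoding RNA, was at 0.28 (SE 0.089), the transcription factor gene Tfcp2 at 0.17 (SE 0.050) and Ccnl2, a cyclin of the splicing machinery, at 0.16 (SE 0.055). The largest differences with all pairs on the higher side belonged to the pseudogene Nlrp5-ps (0.41, SE 0.15; 7.97 ± 0.27 in cbp+/- and 7.56 ± 0.32 in wild type, SD, n = 5 each), to Pcdhb7 (0.37, SE 0.20) and Pcdhb2 (0.35, SE 0.11), which are described with their cluster below, and to Igf2 and Kl. The growth factor gene Igf2, which meninges and choroid plexus express strongly, differed by 0.37 (SE 0.15), with 0.91 in pair 3 and 0.10 to 0.36 in the other 4, and by 0.196 without cbp+/- array 3. Kl, the klotho gene of the choroid plexus, differed by 0.32 (SE 0.23), with 1.40 in pair 3 and 0.02 to 0.10 in the other 4, and by 0.0454 without that array. The part of choroid plexus content in both was not tested.

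On the lower side Mtmr10, Tox3 and Rasgef1a had every cbp+/- array below every wild-type array. Mtmr10, of the myotubularin-related family, read 6.75, 6.67, 6.83, 6.71 and 6.76 on cbp+/- arrays and 6.94, 6.94, 6.88, 6.92 and 6.91 on wild-type arrays (difference -0.18, SE 0.046). Tox3, an HMG-box regulator of calcium-dependent transcription in neurons, read 6.56, 6.59, 6.63, 6.37 and 6.35 on cbp+/- arrays and 6.85, 6.91, 6.73, 6.78 and 6.64 on wild-type arrays (difference -0.28, SE 0.083). The Ras exchange factor gene Rasgef1a stood at 9.46, 9.41, 9.40, 9.26 and 9.25 on cbp+/- arrays and 9.71, 9.67, 9.50, 9.50 and 9.61 on wild-type arrays (difference -0.24, SE 0.075). For all 3 genes limma gave an adjusted p of 1.00, and 0.535 with the block.

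The other 7 genes named by p on this side overlapped between groups. Vegfd, a lymphatic and vascular growth factor, was at -0.28 (SE 0.079), Pde11a, a phosphodiesterase for cyclic AMP and cyclic GMP, at -0.26 (SE 0.076), and Acat3, an acetyl-CoA acetyltransferase, at -0.25 (SE 0.078). The intermediate filament gene Synm was at -0.20 (SE 0.058) and Specc1, a coiled-coil protein of the cytoskeleton, at -0.20 (SE 0.057). These 5 were lower in 5 of 5 pairs. Serpina3n, a secreted protease inhibitor of reactive astrocytes, differed by -0.39 (SE 0.11) and Ing1, a chromatin reader in deacetylase complexes, by -0.18 (SE 0.051), each lower in 4 of 5 pairs.

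The largest differences with all pairs on the lower side belonged to Penk, Dcn, Grp, Il33 and Igfbp4. Penk, the proenkephalin gene and a classical CREB target, read 8.48, 8.54, 8.52, 7.78 and 8.75 on cbp+/- arrays and 8.97, 9.26, 8.63, 8.14 and 9.21 on wild-type arrays. The SDs of 0.37 in cbp+/- and 0.47 in wild type were of the size of the difference, -0.43 (SE 0.25), but each pair was lower, by values of -0.73 to -0.11 (SE with the block 0.079; limma, adjusted p = 0.535). Dcn, the matrix proteoglycan decorin, differed by -0.37 (SE 0.18, and 0.050 with the block), with pair values of -0.54 to -0.24. Grp, which encodes gastrin-releasing peptide, read 7.51, 7.64, 7.93, 7.72 and 8.22 on cbp+/- arrays and 8.07, 8.01, 8.17, 8.02 and 8.58 on wild-type arrays (difference -0.37, SE 0.17, and 0.050 with the block). For Dcn and Grp, as for Nlrp5-ps, the adjusted p with the block was 0.392 in limma, the smallest of the comparison. The alarmin gene Il33 was at -0.36 (SE 0.17) and Igfbp4, a binding protein of insulin-like growth factors, at -0.34 (SE 0.17). The plot of 12 genes by array shows each pair.

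**Figure D1:**
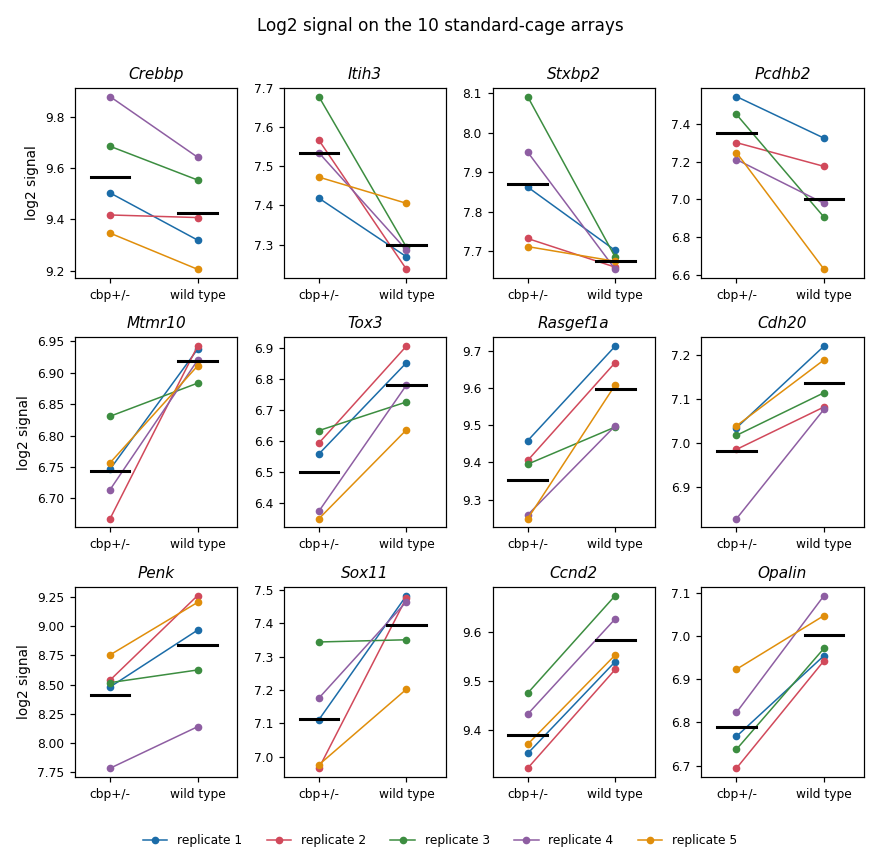
Log2 signal (y axis) of 12 genes on the 10 standard-cage arrays, cbp+/- left and wild type right; each colour is a replicate number, lines join same-numbered arrays and black bars are group means (n = 5 each). For Itih3, Stxbp2, Mtmr10, Tox3, Rasgef1a, Cdh20, Ccnd2 and Opalin the groups do not overlap, whereas Penk and Crebbp overlap although every line slopes the same way.

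CREB and its partners did not separate the genotypes. Of 18 genes of the CREB family and its coactivators, 10 were higher and 8 lower in cbp+/- with a median difference of 0.016, beside 0.0044 over all probe sets. For this and the next lists, 3.91% of all probe sets were higher and 3.56% lower in 5 of 5 pairs (4.78% and 5.1% of the brighter ones). In the CREB list 2 were higher and 1 lower in 5 of 5 pairs. The 2 higher ones were Crebbp and Atf4, a stress-responsive factor of the CREB superfamily (7.58 ± 0.24 in cbp+/-, 7.41 ± 0.20 in wild type, SD, n = 5 each), and the lower one was Creb3l1, a membrane-bound relative (-0.11, SE 0.061). The 20 other acetyltransferase genes and their cofactors had a median of 0.018, with 3 higher in 5 of 5 pairs, among them Ing4 of the HBO1 complex (0.11, SE 0.081) and Gtf3c4, a subunit of transcription factor IIIC (0.13, SE 0.075), and 1 lower. The median of the acetyltransferases turned to -0.0040 without pair 3. The 18 deacetylases were at 0.018 and the 17 acetyl-lysine readers at 0.0065, with Cecr2, a bromodomain protein, at -0.13 (SE 0.078). For 33 histone and DNA methylation enzymes the median was 0.0066, with 1 gene on either side in all pairs. In each of these lists 0 members passed with limma, with or without the block.

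Genes that neuronal activity induces fell on either side. The 39 immediate early genes split into 19 higher and 20 lower, with a median of -0.0016. In all pairs 0 were higher and 3 lower, beside 3.91% and 3.56% of all probe sets and 4.78% and 5.1% of the brighter ones. Fos, the founding AP-1 factor gene, read 6.31, 6.41, 6.68, 6.35 and 6.52 on cbp+/- arrays and 6.08, 6.35, 6.59, 6.35 and 6.63 on wild-type arrays, with values of either group interleaved. Arc, a regulator of glutamate receptor traffic, ran from 7.83 to 9.32 in cbp+/- and from 7.85 to 9.17 in wild type, with a difference of 0.012 (SE 0.29). The zinc finger factor gene Egr1 differed by 0.13 (SE 0.26), the neuronal factor gene Npas4 by -0.044 (SE 0.16) and the matricellular gene Ccn1 by -0.25 (SE 0.16), of which pair 5 alone gave -0.86. Array number mattered more than genotype here, since Arc and Egr1 were highest on array 3 of either genotype.

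Among 18 peptides and secreted factors known as CREB targets, 8 were higher and 10 lower, with a median of -0.0067 and 2 lower in all pairs, Penk and Vgf. The shares lower in all pairs were 3.56% of all probe sets and 5.1% of the brighter ones, and those higher 3.91% and 4.78%. Vgf, a precursor of secreted peptides, read 7.40, 7.60, 7.85, 7.56 and 7.70 on cbp+/- arrays and 7.56, 7.68, 8.09, 7.96 and 7.73 on wild-type arrays (difference -0.18, SE 0.10). Bdnf, the neurotrophin gene, averaged 6.75 ± 0.20 in cbp+/- and 6.87 ± 0.14 in wild type (SD, n = 5 each; difference -0.11, SE 0.090), with -0.55 in pair 3 and -0.11 to 0.09 in the other 4. Npy, which encodes neuropeptide Y of interneurons, differed by -0.0088 (SE 0.17). In the wider list of 23 growth factors and receptors the median was -0.039, with 2 higher and 2 lower in all pairs; Vegfa, the main angiogenic factor, was at 0.14 (SE 0.080) and the receptor gene Fgfr2 at -0.14 (SE 0.090).

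The cyclic AMP response element, the DNA site that CREB binds, was searched as TGACGTCA (its own reverse complement) and as its shorter core TGACG on either strand, which TGACGTCA also contains, in the 250 bases before each RefSeq gene start. Of all 32851 promoters of this length, 1.55% held the full site and 17.8% the core. Promoters matched 15612 tested genes, of which 364 held the full site. Their median difference was 0.0056, against 0.0050 for the 15248 genes without it. In all pairs 20 of the 364 were higher (5.49%) and 18 lower (4.95%), against 3.99% and 3.62% of the genes without the site; genes with the site were also brighter, with a median log2 signal of 7.44 against 6.61, and among brighter genes the shares were 5.56% and 6.35% with the site and 4.92% and 5.22% without. Genes with the core had a median of 0.0080 and those without it 0.0043. A match is a description of letters and not of binding. The following 3 promoters (RefSeq, GRCm38.p6) are shown because genes with the element or only its core lay on different sides: Hlf lower, Ing4 higher and Fos interleaved. Capitals mark the full element in Hlf and Ing4 and the core in Fos.
Hlf, chr11:90390918-90391057, minus strand: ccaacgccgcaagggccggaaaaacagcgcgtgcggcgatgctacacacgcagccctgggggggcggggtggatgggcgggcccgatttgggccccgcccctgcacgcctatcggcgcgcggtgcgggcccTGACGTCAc
Ing4, chr6:125039598-125039737, plus strand: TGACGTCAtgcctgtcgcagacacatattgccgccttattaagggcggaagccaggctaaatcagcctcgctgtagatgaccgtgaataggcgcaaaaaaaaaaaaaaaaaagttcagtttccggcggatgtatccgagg
Fos, chr12:85473750-85473889, plus strand: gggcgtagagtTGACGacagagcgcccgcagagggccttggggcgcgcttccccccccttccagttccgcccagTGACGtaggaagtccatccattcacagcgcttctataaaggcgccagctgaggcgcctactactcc
Ing4 read 7.62, 7.63, 7.63, 7.87 and 7.99 on cbp+/- arrays and 7.58, 7.61, 7.52, 7.64 and 7.83 on wild-type arrays. Hlf, a PAR bZIP factor downstream of the clock, read 8.90, 8.80, 8.89, 8.53 and 8.51 on cbp+/- arrays and 8.91, 8.98, 8.96, 8.85 and 8.79 on wild-type arrays (difference -0.17, SE 0.077).

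Genes of newborn granule neurons were lower in the median of each pair. In the dentate gyrus stem cells divide throughout adult life and give rise to immature neurons that switch on a set of cytoskeletal and transcription factor genes. Of the 20 members measured, 14 were lower and 6 higher, with a median of -0.057 and pair medians of -0.122 to -0.047; 6 were lower and 0 higher in all pairs, beside 3.56% of all probe sets and 5.1% of the brighter ones. Sox11, a transcription factor of newborn neurons, read 7.11, 6.96, 7.34, 7.18 and 6.98 on cbp+/- arrays and 7.48, 7.48, 7.35, 7.47 and 7.20 on wild-type arrays. Only cbp+/- array 3 reached the wild-type range, and the difference was -0.28 (SE 0.12; limma, adjusted p = 1.00, and 0.543 with the block). Dpysl3, a microtubule regulator of growing axons, was at -0.18 (SE 0.085) and Prokr2, a receptor that guides migrating neuroblasts, at -0.16 (SE 0.076), both lower in 5 of 5 pairs. Dcx, the most used marker of these cells, did not share this: it averaged 7.03 ± 0.11 in cbp+/- and 7.03 ± 0.20 in wild type (SD, n = 5 each; difference -0.0079, SE 0.091). Sox11, Dpysl3 and Prokr2 were the members with the smallest p. Neurod1, Igfbpl1 and Eomes were, like Dcx, among the members with the largest p. In pooled tissue, fewer cells of a type and less RNA per cell cannot be told apart.

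Ccnd2, which encodes the cyclin D2 of dividing hippocampal progenitors, had the same difference in each pair. It read 9.35, 9.32, 9.47, 9.43 and 9.37 on cbp+/- arrays and 9.54, 9.52, 9.67, 9.63 and 9.55 on wild-type arrays. The groups did not overlap, and the pair differences ran from -0.20 to -0.18 around a mean of -0.19 (SE 0.066, and 0.032 with the block; limma, adjusted p = 1.00 and 0.535). Its relative Ccnd1 was at -0.16 (SE 0.086) and lower in 4 of 5 pairs. The 29 cell-cycle genes as a list had 15 higher and 14 lower, with a median of 0.00016, so that cyclin D2 was not accompanied by the list. In all pairs 3 were lower, beside 3.56% of all probe sets and 5.1% of the brighter ones.

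Markers of mature hippocampal neurons were also mostly on the lower side. For 16 dentate granule cell genes the median was -0.047, with 11 lower. Their median was 0.120 in pair 3 and -0.112 to -0.037 in the other pairs. Of these genes 2 were lower in all pairs (3.56% of all probe sets, 5.1% of the brighter ones), Trpc6 and Tdo2. Trpc6, a calcium-permeable channel, read 8.71, 8.76, 8.17, 8.48 and 8.50 in cbp+/- and 8.98, 8.91, 8.49, 8.65 and 8.71 in wild type (difference -0.22, SE 0.12). Tdo2, a tryptophan-degrading enzyme, was at -0.13 (SE 0.068). The granule cell factor gene Prox1 differed by -0.040 (SE 0.14). The 12 CA1 genes had a median of -0.055, below 0 in each pair, and 3 were lower in all pairs, beside 5.1% of brighter probe sets. These 3 were Wfs1, Itpka and Dcn, the last of which is also in the meningeal list. Wfs1, of the endoplasmic reticulum and strong in CA1, read 7.81, 7.78, 8.52, 8.15 and 7.85 on cbp+/- arrays and 7.90, 8.01, 8.93, 8.58 and 8.15 on wild-type arrays (difference -0.29, SE 0.19). Itpka, an inositol trisphosphate kinase of spines, differed by -0.11 (SE 0.13, and 0.033 with the block), with pair values of -0.14 to -0.09. For 17 CA2 and CA3 genes the median was -0.040, again below 0 in each pair, with 4 lower in all pairs (3.56% of all probe sets, 5.1% of the brighter ones); these include the CA2 signalling gene Rgs14 (-0.17, SE 0.096) and the receptor kinase gene Tyro3 (-0.15, SE 0.088). The 26 interneuron genes were at -0.022, and Sox6, a factor of cortical and hippocampal interneurons, had no overlap between groups, at 7.10, 7.12, 7.12, 7.14 and 6.94 in cbp+/- and 7.22, 7.15, 7.19, 7.21 and 7.19 in wild type.

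Most glutamate receptor and potassium channel genes were on the lower side. Of 32 glutamate receptor and postsynaptic genes 25 were lower (median -0.033), 8 of them in all pairs, beside 3.56% of all probe sets and 5.1% of the brighter ones, and 1 was higher in all pairs (3.91% and 4.78%). Grik3, a kainate receptor subunit, was at -0.21 (SE 0.18, and 0.051 with the block) and Grin3a, an NMDA receptor subunit, at -0.19 (SE 0.155, and 0.052), while the metabotropic receptor gene Grm7 was at 0.13 (SE 0.10). In 30 potassium channel genes 25 were lower (median -0.050), 4 in all pairs (3.56% of all probe sets, 5.1% of the brighter ones) and 0 higher in all pairs, with the calcium-activated channel genes Kcnn2 at -0.14 (SE 0.084) and Kcnn3 at -0.16 (SE 0.073), the last lower in 4 of 5 pairs. The 24 synaptic vesicle genes had a median of -0.024. In both the glutamate receptor and the potassium channel list the median of pair 3 was positive, at 0.043 and 0.059, where those of the other 4 pairs were negative. Over all brighter probe sets the median of pair 3 was likewise the highest, 0.069, against -0.035 to 0.011 in the other 4, and without pair 3 a brighter probe set was more often lower in the remaining 4 pairs (12.5%) than higher (6.85%). How far this shift of whole arrays carries these lists was not tested. The same holds for the newborn neuron, hippocampal field, cadherin and oligodendrocyte lists, which were also mostly lower.

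Among 25 classical cadherins and non-clustered protocadherins 16 were lower (median -0.060), 5 in all pairs and 0 higher in all pairs, beside 3.56% and 3.91% of all probe sets and 5.1% and 4.78% of the brighter ones. Cdh20 read 7.03, 6.98, 7.02, 6.83 and 7.04 on cbp+/- arrays and 7.22, 7.08, 7.11, 7.08 and 7.19 on wild-type arrays, without overlap (difference -0.16, SE 0.050). Cdh4, which encodes R-cadherin, stood at 6.27, 6.41, 6.65, 6.44 and 6.37 in cbp+/- and 6.58, 6.53, 6.86, 6.62 and 6.52 in wild type (-0.19, SE 0.074), and Cdh13, a cadherin without a cytoplasmic domain, was at -0.14 (SE 0.062) and lower in 4 of 5 pairs. The 22 clustered protocadherin beta genes, a list set up after their values had been seen, were mostly on the higher side. Their median was 0.118, with 19 higher and 3 lower, and 7 higher (3.91% of all probe sets, 4.78% of the brighter ones) and 0 lower in all pairs; the pair medians were -0.091 in pair 1 and 0.117 to 0.229 in pairs 2 to 5. Pcdhb2 read 7.54, 7.30, 7.45, 7.21 and 7.25 on cbp+/- arrays and 7.32, 7.17, 6.91, 6.98 and 6.63 on wild-type arrays. Pcdhb4 was at 0.22 (SE 0.11, and 0.046 with the block), Pcdhb7 at 0.37 (SE 0.20, and 0.076) and Pcdhb10 at 0.18 (SE 0.093), the last higher in 4 of 5 pairs. These genes are adjacent, similar in sequence and may share probes, so they are not independent of each other.

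**Figure D2:**
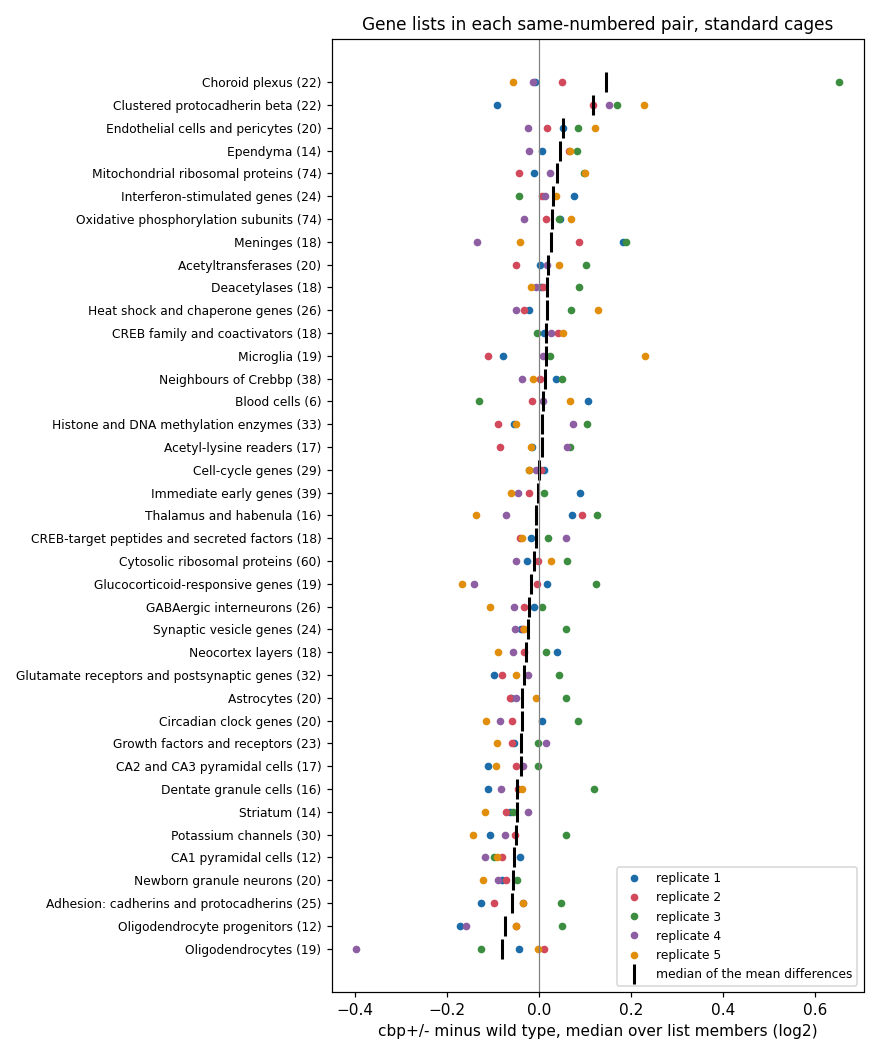
Median over the members of each gene list of the cbp+/- minus wild-type difference (x axis, log2), with the number of measured members in brackets; coloured points are the 5 same-numbered pairs and black bars the median of the mean differences. CA1, CA2 and CA3, newborn neuron and striatal lists lie below 0 in all 5 pairs, while the choroid plexus list reaches 0.653 in pair 3 alone.

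Myelin genes were lower in most pairs, by very different amounts. Of 19 oligodendrocyte genes 18 were lower, with a median of -0.080, but the pair medians were -0.044, 0.010, -0.125, -0.397 and -0.0011, so that pair 4 had the largest; 3 were lower in all pairs (3.56% of all probe sets, 5.1% of the brighter ones). Opalin, a membrane protein of myelinating oligodendrocytes, read 6.77, 6.69, 6.74, 6.82 and 6.92 on cbp+/- arrays and 6.95, 6.94, 6.97, 7.09 and 7.05 on wild-type arrays, with no overlap and pair values of -0.27 to -0.12 (difference -0.21, SE 0.10, and 0.037 with the block). Tspan2, a tetraspanin of myelin, was at -0.21 (SE 0.14) and Mbp, myelin basic protein, at -0.13 (SE 0.10), with -0.55 and -0.36 in pair 4. The 12 progenitor genes had a median of -0.073, with 10 lower and 1 lower in all pairs. That gene was Bcas1, of early myelinating cells, at -0.23 (SE 0.11), and Ptprz1, a receptor phosphatase, was at -0.17 (SE 0.10) and lower in 4 of 5 pairs.

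Astrocyte genes had a median of -0.037 over 20 members, with 3 lower in all pairs (3.56% of all probe sets, 5.1% of the brighter ones). Among these 3 was Gfap, the filament protein of reactive astrocytes, at -0.17 (SE 0.13, and 0.048 with the block). The 19 microglial genes were at 0.016, with pair medians of -0.112 to 0.230. Vascular genes were the cell type list with most members higher in all pairs, 3 of 20 against 0 lower, beside 3.91% of all probe sets and 4.78% of brighter ones, and a median of 0.052. Vtn, vitronectin, which pericytes make, read 9.42, 9.27, 9.91, 9.19 and 9.73 on cbp+/- arrays and 9.18, 9.14, 9.52, 8.98 and 9.45 on wild-type arrays (difference 0.25, SE 0.14, and 0.044 with the block). Vwf, the clotting factor of endothelium, was at 0.22 (SE 0.099).

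Lists for tissue around the hippocampus were read in the same way. Choroid plexus genes (22) gave a median of 0.145 with 21 higher, and -0.00059 without cbp+/- array 3; Kl was higher in all pairs. Meningeal genes (18) were at 0.026, and at -0.0076 without that array. Ependymal genes (14) were at 0.046, and at 0.035 without it, and 6 blood genes at 0.0091, and at 0.040 without it. Striatal genes, 14 of them, had a median of -0.047, below 0 in all pairs, with 4 lower in all pairs (3.56% of all probe sets, 5.1% of the brighter ones): the list shares Penk, and the dopamine receptor genes Drd2 and Drd1 were at -0.15 (SE 0.051) and -0.16 (SE 0.093). Neocortical genes (18) were at -0.027, with Etv1 at -0.27 (SE 0.13) and Lamp5 at -0.23 (SE 0.13). Thalamic genes (16) were at -0.0057, with Zic1 at 0.30 (SE 0.11) but -0.13 in pair 4. Because Penk is itself a member of the striatal list, and no median was taken without it, the shared side is partly built in. The striatal level was highest on array 3 of either genotype, at 0.0427 in cbp+/- and 0.145 in wild type. Penk read 8.52 and 8.63 on these arrays, below its highest values of 8.75 in cbp+/- and 9.26 in wild type. The part of striatal tissue in the Penk values was not tested.

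**Figure D3:**
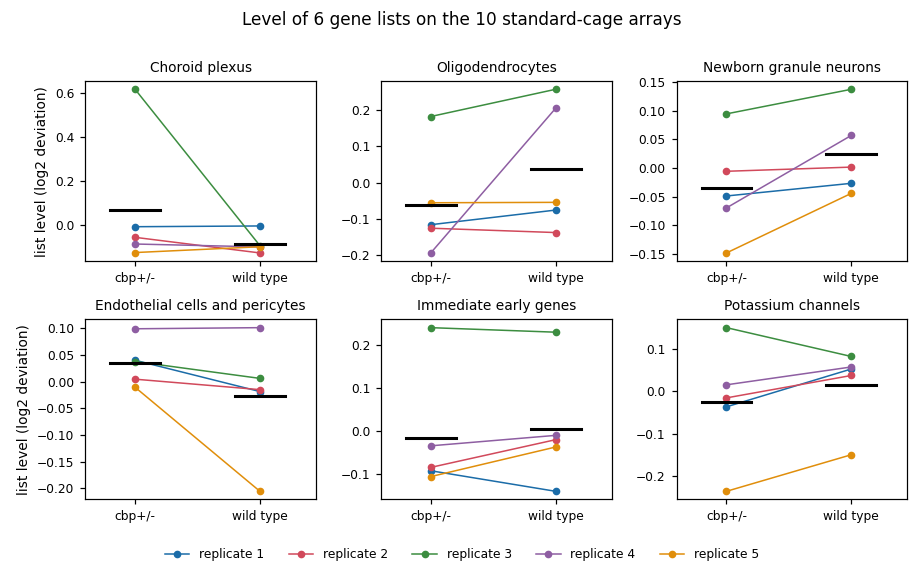
Level of 6 gene lists (y axis, median over members of the log2 deviation from each gene's mean over the 10 arrays), cbp+/- left and wild type right, colours and lines by replicate number and black bars the group means (n = 5 each). The choroid plexus level of cbp+/- array 3 is 0.615, above the other 9 arrays, and the lines of newborn neuron genes all slope upward to wild type.

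Stress, clock and immune lists gave small medians. Of 20 circadian genes 15 were lower (median -0.038), 2 in all pairs, Hlf and the repressor gene Bhlhe41 (-0.27, SE 0.17). The shares lower in all pairs were 3.56% of all probe sets and 5.1% of the brighter ones. Without cbp+/- array 3 the circadian median was -0.116. The 19 glucocorticoid-responsive genes were at -0.018, or -0.110 without that array, and Nr3c1, the glucocorticoid receptor gene, was at -0.16 (SE 0.10, and 0.040 with the block). The 26 chaperone genes were at 0.017, with Dnajb5, a heat shock cochaperone, at 0.15 (SE 0.15, and 0.035 with the block) and pair values of 0.08 to 0.20. Interferon-stimulated genes (24) had a median of 0.030 with 17 higher, 1 of them in all pairs; Ddx58, the viral RNA sensor RIG-I, was at 0.14 (SE 0.051) and higher in 4 of 5 pairs. Lists put together afterwards for basic cell functions gave -0.011 for 60 cytosolic ribosomal proteins, 0.038 for 74 mitochondrial ribosomal proteins (57 higher, 5 in all pairs) and 0.027 for 74 oxidative phosphorylation subunits (45 higher, 8 in all pairs, 0 lower in all pairs), beside 3.91% of all and 4.78% of brighter probe sets higher in all pairs.

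The genes next to Crebbp on chromosome 16, which are inherited together with it in crosses, had a median difference close to the 0.0044 of all probe sets. The 38 tested neighbours (up to 25 on a side in RefSeq order) had a median of 0.013, with 22 higher and 16 lower. At an unadjusted p under 0.05 in limma with the block, 4 were higher and 0 lower, beside 3.3% and 3.17% of all probe sets. In all pairs 1 was higher, beside 3.91% of all probe sets and 4.78% of the brighter ones. That gene, the zinc finger gene Zfp263, read 6.63, 6.63, 6.72, 6.53 and 6.76 on cbp+/- arrays and 6.54, 6.44, 6.61, 6.33 and 6.52 on wild-type arrays (difference 0.16, SE 0.065).

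The 6 enrichment arrays, which share no array with the standard-cage comparison, gave a second view of the genotype. They were also paired by replicate number, but pairing by number was checked only for the standard-cage arrays. When all arrays were clustered into 4 sets, the cbp+/- and wild-type enrichment arrays numbered 3 fell in different sets. Of 852 probe sets higher in all standard-cage pairs, 537 had a positive cbp+/- minus wild-type mean in enrichment (63%), against 41.7% of all probe sets, and 222 were higher in 3 of 3 enrichment pairs (26.1%), against 11.6%. Of 776 lower in all standard-cage pairs, 538 were negative in enrichment (69.3%), against 58.3%, and 202 were lower in 3 of 3 pairs (26%), against 18.8%. Brighter probe sets made up 521 of the 852 and 555 of the 776. In enrichment the median difference was 0.036 over brighter probe sets, against -0.020 over all. The shares of all probe sets are thus not matched for brightness, and its part in these shares was not tested. Probe sets are not independent replicates, so these shares are a description. Pcdhb2 was at 0.73 (SE 0.15) in enrichment, Cdh4 at -0.35 (SE 0.096), Grp at -0.35 (SE 0.22), Sox11 at -0.32 (SE 0.16), Pde11a at -0.27 (SE 0.099) and Cdh20 at -0.15 (SE 0.065), each on its standard-cage side in 3 of 3 pairs. Opalin was at 0.0044 (SE 0.13), Dcn at -0.038 (SE 0.23) and Rasgef1a at 0.0086 (SE 0.097). Of genes with the smallest p on the higher side, Itih3 was at 0.097 (SE 0.072) in enrichment and Firre at 0.080 (SE 0.11). Cdk5rap1 at -0.051 (SE 0.074), Tfcp2 at -0.026 (SE 0.065) and Traf2 at -0.0036 (SE 0.083) lay on the other side there.

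The difference of the genotype effect between housings was tested directly. Limma called 0 of 21780 probe sets (0%), with a smallest adjusted p of 1.00, and 579 had an unadjusted p under 0.05 (2.66%). With arrays weighted by their quality in limma, 429 were called. Serpina3n had an effect of -0.39 in standard cages and 0.28 (SE 0.14) in enrichment, a difference of -0.67 (SE 0.18; limma, adjusted p = 1.00). Mtmr10 was at -0.18 in standard cages and 0.086 in enrichment (difference -0.26, SE 0.075). No gene is therefore shown to respond to the deficiency in standard cages only.

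**Figure D4:**
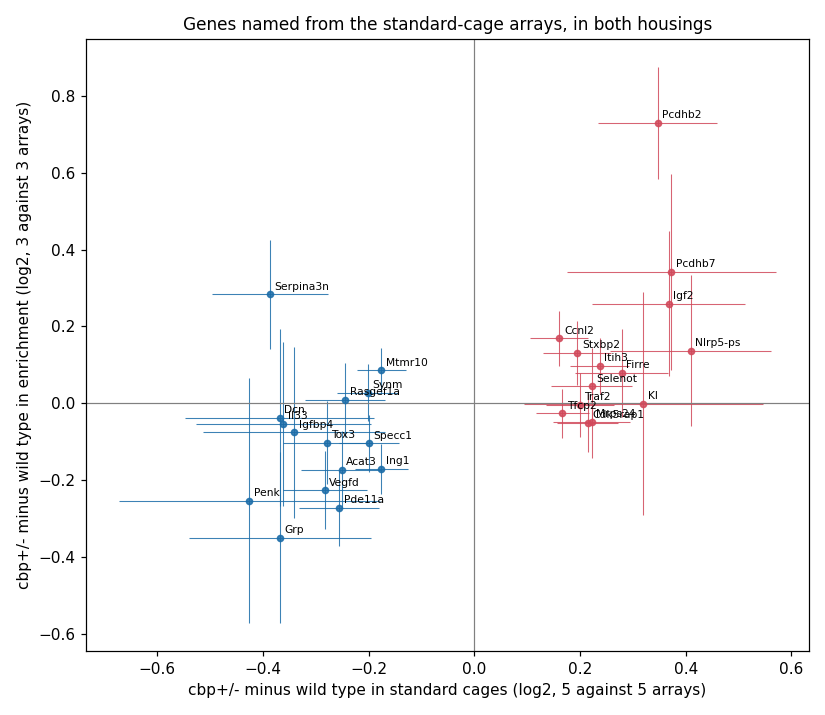
Difference of cbp+/- minus wild type in standard cages (x axis, log2) against that in enrichment (y axis, log2) for the genes named by smallest p or largest consistent difference; bars are the SE of the fit, red genes were higher and blue lower in standard cages. Pcdhb2 (0.35 and 0.73) and Grp (-0.37 and -0.35) lie on one side in both housings, Serpina3n (-0.39 and 0.28) does not.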

How the data were processed

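The authors deposited linear-scale intensities. Per the submitters' processing notes these came from RMA, and the labels' protocols name GeneSpring GX; no version or genome build is given there. Log2 of the intensity was taken. Scale was read from the values (array medians 76.7 to 80.2 in standard cages, values 22.12 to 16520); whether a baseline was subtracted is unknown. The platform table gave exactly 1 symbol to 21780 of 28815 probe sets (19935 genes); 1605 had several symbols and 5430 were unnamed here. RefSeq served for names, neighbours and promoters.

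Using limma 3.58.1 in R 4.3.3, 4 group means were fitted to the 16 arrays (12 residual degrees of freedom), with Benjamini-Hochberg adjustment over all tested probe sets at 0.05. A block by replicate number was fitted on the 10 standard-cage arrays (4 residual degrees of freedom). The numbers were taken to pair the arrays because deviations from the group means correlated at 0.593, 0.544, 0.693, 0.733 and 0.767 in pairs 1 to 5, all above 0.1, the limit set for pairing. The own number was the best match in 4 of 5; in pair 1 another number reached 0.621. A pooled array is the replicate; the number of arrays limits precision. Code was tested on simulated data. A gene's brightest probe set stands for it in lists, of which 34 came from textbook knowledge (707 of 755 entries matched).

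Genes were named by rule: Crebbp and Ep300, up to 10 per direction by p and 5 by size among brighter named genes, up to 3 per list by p, and 11 fixed genes (Fos, Arc, Egr1, Npas4, Bdnf, Penk, Npy, Vgf, Dcx, Prox1 and Ttr). Arrays, members and lists were chosen with earlier results of these data known. No set test was run.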

Additional observations from a re-analysis of the deposited data

Results flagged for a closer look

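Within each genotype, 90 genes and 39 lists were screened for 1 array far from the other 4, by Dixon's gap test. Of 258 groups of 5 arrays 20 were flagged, where chance flags about 1 in 20; 6 flags fell on cbp+/- array 3, 5 on wild-type array 5 and 4 on wild-type array 3.

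On cbp+/- array 3 the levels of choroid plexus genes (0.615, others -0.123 to -0.0063), immediate early genes (0.24, others -0.105 to -0.0337) and oligodendrocyte progenitor genes (0.194, others -0.155 to -0.0581) were high. On wild-type array 3 these levels were -0.0919, 0.230 and 0.0647, and that of the immediate early genes was the highest of its group. Igf2 read 8.54 there (others 7.51 to 7.77), Kl 8.21 (lowest other 6.55) and Mbp 10.4 (others 9.94 to 10.1). On cbp+/- array 4 Penk was low at 7.78 (others 8.48 to 8.75) and Cdh20 at 6.83 (others 6.98 to 7.04). Penk was also lowest of its group on wild-type array 4. Sox6 was low on cbp+/- array 5, at 6.94 (others 7.10 to 7.14).

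Among wild-type arrays, array 5 had low levels of growth factor genes (-0.142) and potassium channel genes (-0.15), a high level of mitochondrial ribosomal protein genes (0.171), high Grp (8.58) and low Grin3a (7.16). The levels of these lists lay on the same side on cbp+/- array 5, at -0.131, -0.237 and 0.278, and Grp was also highest of its group there. Wild-type array 3 had high Igfbp4 (8.89), Grik3 (8.48) and Npas4 (6.77) and a high striatal level (0.145). Wild-type array 1 had the highest choroid plexus level of its group (-0.0029), and array 4 the lowest Bdnf (6.62).

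The genotype effect lay on opposite sides in all pairs of both housings for Tfcp2, higher in 5 of 5 standard-cage pairs and lower in 3 of 3 enrichment pairs (difference 0.192, SE 0.082), and for Mtmr10, lower in 5 of 5 and higher in 3 of 3 (difference -0.262, SE 0.075). Limma gave an adjusted p of 1.00 for both differences.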

How the results depend on the processing

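The count of 0 called probe sets in standard cages was the same under all 31 alternatives, including the replicate block. The count at an unadjusted p under 0.05 was 215 and moved to 1410 with the replicate block on 10 arrays, 957 with the replicate block on 16 arrays, 813 with array sets as a block, 1671 with array weights, 55 without dim probe sets and 1634 with quantile normalization added to the block. Leaving out arrays or pairs gave 172 to 355 without the block (331 without wild-type array 5, 355 without cbp+/- array 3) and 1204, 1172, 1864, 1090 and 1335 with the block and without pairs 1 to 5. For the difference between housings 0 were called, but 429 with array weights; its unadjusted count of 579 moved to 1441 with the replicate block, 1419 with array sets, 36 without dim probe sets, 958 over all deposited probe sets, 4426 with array weights, and 332 to 855 with arrays or pairs left out (332 without pair 1, 337 without pair 2). The cause was not tested. The block changed no call. Crebbp stayed positive in every setting run.

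Genes named with small differences changed sign. With array weights Ep300 was at -0.0114, Arc at -0.0195 and Ttr at -0.241. With arrays or pairs left out, the ranges were -0.0524 to 0.142 for Ep300, -0.0276 to 0.111 for Fos, -0.216 to 0.206 for Arc, -0.08995 to 0.339 for Egr1, -0.159 to 0.0423 for Npas4, -0.125 to 0.126 for Npy, -0.057 to 0.0447 for Dcx, -0.128 to 0.0722 for Prox1 and -0.136 to 1.53 for Ttr. With the block and a pair left out, Arc was at -0.01817, -0.02243 and -0.0159 without pairs 1, 3 and 5, Npy at 0.01817, 0.03014 and 0.009003 without pairs 2, 3 and 5, Dcx at 0.04033 and 0.02031 without pairs 1 and 2, Prox1 at 0.02653 without pair 5, and Ttr at -0.1364 without pair 3. Of list medians, those of oligodendrocytes (-0.143 to -0.023), their progenitors, newborn neurons (-0.0929 to -0.0354), CA1, CA2 and CA3, cadherins, potassium channels, interneurons, striatum, deacetylases, ependyma, interferon and protocadherin beta genes (0.0535 to 0.186) kept their sign under all 31 alternatives; the other 26 lists changed sign under 1 or more. Alternatives that join the block with quantile normalization or with a pair left out, and counts without pair 3, were chosen after seeing the data. Scanner signals over background were not used here, so dim probe sets could be judged only by their level.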
